A study of Rattus norvegicus with 36 samples.

Results

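Cytochromes P450 of the CYP2C and CYP2A subfamilies were followed in rat liver after short exposure to PBDE47, a brominated diphenyl ether used as a flame retardant. The members are 8 genes: Cyp2c6v1, Cyp2c7, Cyp2c11, Cyp2c13, Cyp2c22, Cyp2c23, Cyp2a1 and Cyp2a2. They were chosen by name, with earlier results of these data known. Every probe set that the platform annotation assigns to one of these symbols was taken. The members make up 8 of 14217 named genes. Each member has 1 probe set of its own, and 1 further probe set is assigned to Cyp2a2 and Cyp2a1 together. The study gave male rats of the Harlan Sprague Dawley strain, 7 weeks old at the start, PBDE47 in corn oil by gavage on 5 successive days and took the left liver lobe 1 day after the last dose. Controls received the corn oil vehicle, so the oil, diet, sex and gavage were common to all groups. The 5 exposed groups received 0.0485 mg/kg, 0.485 mg/kg, 4.85 mg/kg, 48.5 mg/kg and 485 mg/kg. Each of the 6 groups had 6 liver samples, measured on 36 Affymetrix arrays with 1 array per sample. The labels do not say outright that every sample came from a separate animal, so p-values measure the spread between these samples.

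CYP2C and CYP2A enzymes are heme proteins of the endoplasmic reticulum that use electrons from NADPH-cytochrome P450 reductase to hydroxylate or epoxidize steroids, retinoids, fatty acids and foreign compounds. In rat liver several of them are sex-dependent under the pattern of growth hormone secretion: Cyp2c11, Cyp2c13 and Cyp2a2 are typical of males, while Cyp2c7 and Cyp2a1 are higher in females. Cyp2c6v1 is made in both sexes and is known as a target of phenobarbital-like inducers, Cyp2c22 is linked to retinoic acid hydroxylation, and Cyp2c23 is an arachidonic acid epoxygenase.

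Values are on the authors' log2 RMA scale, on which a step of 1 is a doubling. RMA corrects background, normalizes the arrays to a shared distribution and summarizes the probes of a probe set. Array medians lay between 5.31 and 5.38 and array maxima between 15.02 and 15.07. The members lay high on the scale, with a vehicle mean of 10.82 for Cyp2a1 and between 12.51 and 13.99 for the others. A compression of differences there was not tested, also where changes of members at different levels are compared. Correlations between arrays of a group ran from 0.990 to 0.997, and no arrays held identical values. The number of arrays limits the precision. Every difference below is relative to the whole array, and the median change over all 31042 tested probe sets was -0.01 at 48.5 and at 485 mg/kg. In bulk liver, fewer cells of a type and less RNA per cell cannot be told apart. Related P450 messages can bind the same probes, and this was not tested. A probe set is called changed at a limma adjusted p below 0.05 over all 31042 probe sets.

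All members lie on chromosome 1 in the RefSeq gene order (GRCr8). Cyp2a1 and Cyp2a2 are neighbours, Cyp2c6v1 and Cyp2c7 are neighbours, Cyp2c13 and Cyp2c22 are neighbours beside the female-typical Cyp2c12, Cyp2c11 lies beside Cyp2c24, and Cyp2c23 stands apart between Cpn1 and Erlin1. RefSeq promoter windows, 250 bases before to 50 after the start, were at hand for 6 of the 8 members, not for Cyp2c6v1 or Cyp2a2. The upstream parts of 2 windows are shown for genes of contrasting response: Cyp2a1 had the largest rise among the members and Cyp2c11 was not called against vehicle at any dose. The first is GRCr8 chr1:91359028-91359277 and the second chr1:246174966-246175215, both on the plus strand, written 5′ to 3′ with the last base next to the start. Capitals mark TATAAA and CAAAGNNCA, the core letters of a TATA box and of an HNF4-type element, a motif bound by a liver nuclear receptor.
Cyp2a1: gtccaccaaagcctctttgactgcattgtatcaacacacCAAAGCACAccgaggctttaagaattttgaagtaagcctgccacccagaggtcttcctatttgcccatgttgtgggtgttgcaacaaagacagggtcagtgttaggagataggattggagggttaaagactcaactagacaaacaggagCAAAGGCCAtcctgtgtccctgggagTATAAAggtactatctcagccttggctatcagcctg
Cyp2c11: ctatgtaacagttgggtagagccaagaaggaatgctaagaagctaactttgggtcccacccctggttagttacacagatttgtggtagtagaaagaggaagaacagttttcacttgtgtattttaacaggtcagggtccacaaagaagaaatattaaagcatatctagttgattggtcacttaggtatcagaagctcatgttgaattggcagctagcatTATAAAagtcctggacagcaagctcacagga
TATAAA stood in 5 of the 6 windows, all but that of Cyp2c23, and in 14.2% of 33469 promoter windows of the same length, counted on both strands. CAAAGNNCA stood in 3 of the 6, in Cyp2a1, Cyp2c7 and Cyp2c13, against 6.08% of all windows. Its matches with 10 bases on each side are given for comparison, since the 3 genes differ in direction at 485 mg/kg. They come from chr1:91359057-91359085 and chr1:91359206-91359234 (plus strand), chr1:247966261-247966289 (plus strand) and chr1:248787297-248787325 (minus strand).
Cyp2a1 far site: atcaacacacCAAAGCACAccgaggcttt
Cyp2a1 near site: caaacaggagCAAAGGCCAtcctgtgtcc
Cyp2c7 site: atcaaagggaCAAAGATCActtgatagag
Cyp2c13 site: atcatctgcaCAAAGTTCAttttgaagtg
Counted from the start, the sites of Cyp2c7 and Cyp2c13 began at -123 and -127, and those of Cyp2a1 at -211 and -62. In RefSeq the stretches before the starts used for Cyp2c7, Cyp2c13 and Cyp2c23 overlap, wholly or in part, the annotated span of the gene itself. These starts are therefore not its outermost ones. AGGTCA, a core motif of nuclear receptors, stood in the windows of Cyp2c11, Cyp2c7 and Cyp2c22, 3 of 6, against 16.2% of all windows. In Cyp2c7 it overlaps the last base of a TATAAA match. TTCNNNGAA, the letters of a STAT5-type site, stood in 0 of the 6 windows against 8.87% of all. A match is a stretch of letters, and no binding was measured in these livers.

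The response of the members differed by dose and by gene. At 0.0485 and 0.485 mg/kg, limma called 0 of 8 members, where 0% of all probe sets were called. At an unadjusted limma p below 0.05, 1 member (Cyp2a1) passed at 0.0485 mg/kg and 0 passed at 0.485 mg/kg. Of all probe sets, 1519 passed in this way at 0.0485 mg/kg and 1381 at 0.485 mg/kg. The ordinary test of the same model after adjustment also called 0 members at both doses. Only 1 member of the 8 rose at 4.85 mg/kg, Cyp2c6v1, where 0.0193% of all probe sets were called. Of the 8, 2 rose at 48.5 mg/kg, Cyp2c6v1 and Cyp2a1, and 0 fell, where 3.39% of all were called, 2.57% higher and 0.821% lower. The top dose, 485 mg/kg, had 3 that rose (Cyp2c6v1, Cyp2c7 and Cyp2a1) and 2 that fell (Cyp2c13 and Cyp2a2), where 7.81% of all probe sets were called higher and 7.22% lower. The members' median change there was 0.09, between -0.23 and 1.19. Over the 6 groups together, the moderated F test called 6 of 8 members, all but Cyp2c22 and Cyp2c23, beside 13.0% of all probe sets. The comparisons with vehicle share the same 6 vehicle arrays.

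**Figure D1:**
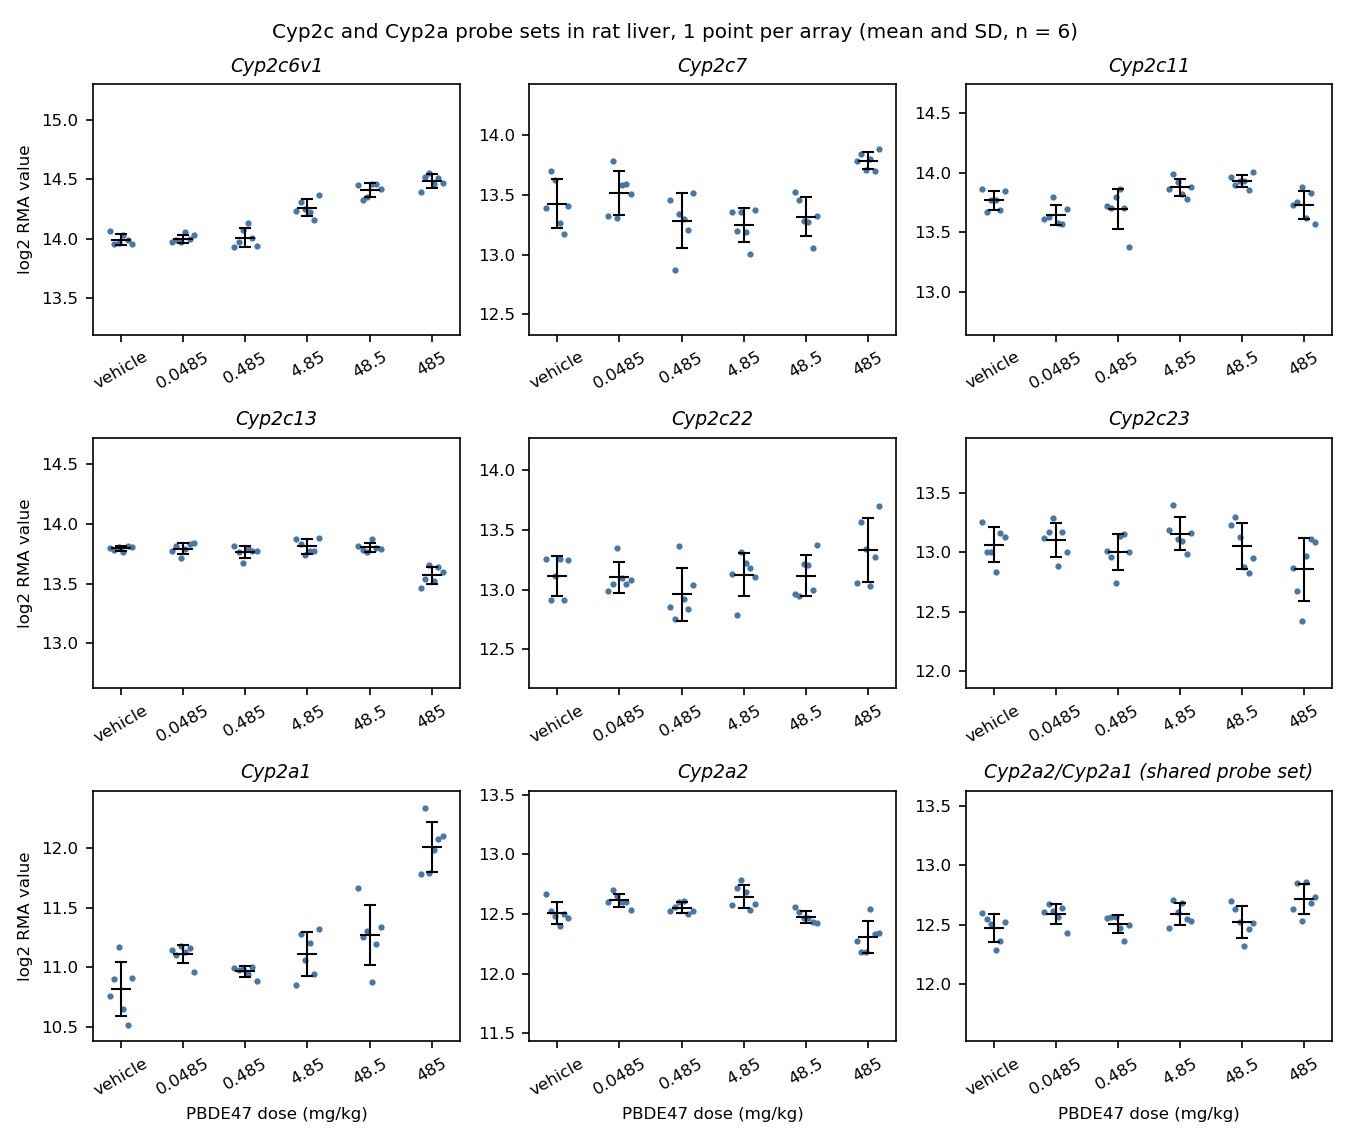
Log2 RMA value (y axis) of each member's probe set and of the probe set shared by Cyp2a2 and Cyp2a1 in the 6 dose groups (x axis, mg/kg). Points are arrays, bars are mean and SD (n = 6), and each panel spans the same height in log2 units; Cyp2c6v1 stands above vehicle from 4.85 mg/kg on and Cyp2a1 stands highest at 485 mg/kg.

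Cyp2c6v1, the inducible CYP2C made in both sexes, rose at the 3 upper doses. Its vehicle arrays ran from 13.95 to 14.07 with a median of 13.98. At 0.0485 mg/kg the lowest, median and highest values were 13.97, 13.99 and 14.05, and at 0.485 mg/kg 13.93, 13.99 and 14.13. Both of these groups overlapped vehicle. At 4.85 mg/kg the 6 arrays ran from 14.16 to 14.37 (median 14.24), at 48.5 mg/kg from 14.32 to 14.46 (median 14.43) and at 485 mg/kg from 14.39 to 14.55 (median 14.49). All 6 arrays of each of the 3 upper groups lay above the highest vehicle array. Groups failed to overlap in this way for 1 of 8 members at 4.85 mg/kg, beside 0.435% of all probe sets, and for 1 of 8 at 48.5 mg/kg, beside 2.20%. The log2 change from vehicle was 0.27 ± 0.04 (SE) at 4.85 mg/kg, a 1.20-fold difference (adjusted p = 0.00308). It was 0.42 ± 0.04 at 48.5 mg/kg (1.34-fold, adjusted p = 2.71e-08) and 0.49 ± 0.04 at 485 mg/kg (1.41-fold, adjusted p = 6.38e-11). The call at 4.85 mg/kg was lost when only the 12 arrays compared were fitted (adjusted p = 0.381).

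In the order of its group means, no neighbouring pair among the 3 lowest, vehicle, 0.0485 and 0.485 mg/kg, passed the limma test. The step from 0.485 to 4.85 mg/kg was 0.25 ± 0.04 (limma adjusted p = 0.0149), and it was the sole call among the 8 members in that comparison, where 0.0129% of all probe sets were called. The step from 4.85 to 48.5 mg/kg was 0.15 ± 0.04 and missed the threshold (adjusted p = 0.0756), with 0 of 8 members called beside 1.18% of all. At an unadjusted p below 0.05, 2 members passed in that step, beside 3853 of all probe sets. Without the array of 4.85 mg/kg replicate 6 the step of Cyp2c6v1 was 0.17 and passed (adjusted p = 0.0449), and the ordinary test also called it. The step from 48.5 to 485 mg/kg was 0.07, with a 95% interval from -0.01 to 0.16 (adjusted p = 0.429). The probe set assigned jointly to Cyp2b1 and Cyp2b2, the classical phenobarbital-inducible P450s, changed by 2.17, 3.45 and 3.65 from 4.85 to 485 mg/kg, from a vehicle mean of 10.79.

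Both members known as higher in females rose at 485 mg/kg. Cyp2a1, a steroid hydroxylase that acts on testosterone, had vehicle values from 10.52 to 11.17 with a median of 10.83. At 48.5 mg/kg its arrays ran from 10.88 to 11.66 (median 11.28), and 5 of 6 lay above all vehicle arrays. At 485 mg/kg they ran from 11.78 to 12.34 (median 12.03), and all 6 lay above every vehicle array. The 485 mg/kg group also lay wholly above the 48.5 mg/kg group. The log2 change was 0.45 ± 0.10 at 48.5 mg/kg (1.37-fold, adjusted p = 0.00754) and 1.19 ± 0.10 at 485 mg/kg (2.29-fold, adjusted p = 3.78e-11). The step between these doses was 0.74 ± 0.10 (adjusted p = 6.76e-06). With only the 12 arrays compared, the call at 48.5 mg/kg was lost (adjusted p = 0.0705).

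At lower doses Cyp2a1 was not called. Its group ranges were 10.96 to 11.18 at 0.0485 mg/kg and 10.86 to 11.32 at 4.85 mg/kg, while the 0.485 mg/kg arrays began at 10.89 with a median of 10.99, and all 3 groups overlapped vehicle. The changes at 0.0485 and 4.85 mg/kg were each 0.29 ± 0.10, with unadjusted p of 0.00723 and 0.00732 and limma adjusted p of 1.00 and 0.567. In the order of its means, the steps from vehicle up to 48.5 mg/kg did not pass between neighbours, and the last step, to 485 mg/kg, did.

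Cyp2c7, a CYP2C that also oxidizes retinoids, rose at 485 mg/kg and at no other dose against vehicle. Vehicle values ran from 13.17 to 13.71 (median 13.40), and the groups from 0.0485 to 48.5 mg/kg together spanned 12.87 to 13.79. At 485 mg/kg the arrays lay between 13.70 and 13.88 with a median of 13.80. There 5 of 6 lay above all vehicle arrays and 1 lay just inside the vehicle range. The log2 change was 0.36 ± 0.10 (1.28-fold, adjusted p = 0.00777). At 4.85 and 48.5 mg/kg the changes were -0.18 (95% interval -0.38 to 0.02, adjusted p = 0.794) and -0.11 (-0.30 to 0.09, adjusted p = 0.66). The 485 mg/kg arrays all lay above those of 48.5 mg/kg, with a step of 0.47 ± 0.10 (adjusted p = 0.0019). In the order of its means, 4.85, 0.485, 48.5 mg/kg, vehicle, 0.0485 and 485 mg/kg, no neighbouring pair passed, and 0.0485 and 485 mg/kg differed by 0.27 (adjusted p = 0.0602). Its SD was 0.07 at 485 mg/kg and between 0.14 and 0.23 in the other groups.

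In the step from 48.5 to 485 mg/kg 2 members rose, Cyp2c7 and Cyp2a1, and 1 fell, Cyp2c13, by the limma test. There 2.55% of all probe sets were called higher and 2.31% lower. These 3 members are also those whose 2 groups did not overlap, beside 2.57% of all. Cyp2c11, at -0.20 ± 0.06 (adjusted p = 0.0592), and Cyp2a2, at -0.17 ± 0.05 (adjusted p = 0.0669), missed the threshold. Cyp2c11 passed it under 4 and Cyp2a2 under 5 of the alternative settings run. Cyp2c11 also passed without 0.485 mg/kg replicate 6 (adjusted p = 0.0208), without 485 mg/kg replicate 3 (adjusted p = 0.0371) and without 485 mg/kg replicate 5 (adjusted p = 0.0453). Cyp2a2 passed without 485 mg/kg replicate 4 (adjusted p = 0.00796).

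Of the 3 members typical of males, Cyp2c13 and Cyp2a2 fell at 485 mg/kg and Cyp2c11 did not pass. Cyp2c13, a male-specific steroid hydroxylase, had vehicle values between 13.76 and 13.82, the narrowest vehicle group of all members (SD 0.02). Its 0.0485, 0.485, 4.85 and 48.5 mg/kg arrays ran from 13.67 to 13.89. At 485 mg/kg the arrays lay between 13.46 and 13.66 (median 13.57), all 6 below every vehicle array. Cyp2c6v1, Cyp2c13 and Cyp2a1 were the 3 of 8 members whose 485 mg/kg group did not overlap vehicle, beside 7.33% of all probe sets. The log2 change was -0.23 ± 0.04, a level 0.854 times that of vehicle (adjusted p = 6.99e-05). The step from 48.5 mg/kg was -0.24 ± 0.04 (adjusted p = 0.000185), again without overlap. At the 4 lower doses the change lay between -0.03 and 0.02. In the order of its means 485 mg/kg was lowest and differed from its neighbour 0.485 mg/kg by 0.20 (adjusted p = 0.000526), while no neighbouring pair among the other 5 groups passed.

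Cyp2a2, the male-specific neighbour of Cyp2a1, had vehicle values from 12.40 to 12.67 with a median of 12.49. Its 4.85 mg/kg group was the highest by mean, from 12.54 to 12.79, and its 48.5 mg/kg group ran from 12.42 to 12.56. At 485 mg/kg the arrays ran from 12.18 to 12.54 (median 12.30). Of these, 5 of 6 lay below all vehicle arrays, and 1 array lay within the vehicle range. The log2 change at 485 mg/kg was -0.20 ± 0.05, a level 0.871 times that of vehicle (adjusted p = 0.00886), and with only the 12 arrays compared the call was lost (adjusted p = 0.081). The 485 mg/kg group differed from 4.85 mg/kg by -0.34 ± 0.05 (adjusted p = 1.86e-05), in a comparison that called 12.8% of all probe sets. The 4.85 mg/kg change from vehicle was 0.14 (95% interval 0.03 to 0.25) and was not called (adjusted p = 0.619). No neighbouring pair in the order of its means passed.

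The probe set shared by Cyp2a2 and Cyp2a1 lay between its genes in its change at 485 mg/kg. Vehicle values ran from 12.29 to 12.60 (median 12.51) and 485 mg/kg values from 12.53 to 12.86 (median 12.71), with 5 of 6 arrays above the vehicle range. The change was 0.25 ± 0.06 (adjusted p = 0.0059), while the moderated F test over all groups missed the threshold (adjusted p = 0.0614). The F test passed without vehicle replicate 1 (adjusted p = 0.0441), 0.0485 mg/kg replicate 6 (adjusted p = 0.0443), 48.5 mg/kg replicate 1 (adjusted p = 0.0366) or 485 mg/kg replicate 3 (adjusted p = 0.0278). It also passed under 5 alternative settings: a replicate block (adjusted p = 0.0497), quantile normalization (0.0385), median centring (0.0338), brighter probe sets (0.0314) and trend and robust eBayes (0.0251). Within groups its deviations correlated with those of Cyp2a1 at r = 0.68 and with those of Cyp2a2 at r = 0.60 over the 36 arrays.

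Cyp2c11, the main P450 of the adult male rat liver and a testosterone hydroxylase, was not called at any dose against vehicle. Vehicle arrays ran from 13.67 to 13.87 (median 13.77), 48.5 mg/kg arrays from 13.85 to 14.01 (median 13.93) and 485 mg/kg arrays from 13.57 to 13.88 (median 13.74). At 48.5 mg/kg 5 of 6 arrays lay above all vehicle arrays, and at 485 mg/kg the group spanned the vehicle range. The change was 0.16 at 48.5 mg/kg (95% interval 0.03 to 0.29, adjusted p = 0.178) and -0.04 at 485 mg/kg (-0.17 to 0.09, adjusted p = 0.77). The F test over the 6 groups nevertheless passed (adjusted p = 0.00572). Of 15 pairs of groups, 2 passed for Cyp2c11: 48.5 mg/kg lay above 0.0485 mg/kg by 0.28 ± 0.06 (adjusted p = 0.0086) and above 0.485 mg/kg by 0.23 ± 0.06 (adjusted p = 0.0406). These comparisons called 1.73% and 1.88% of all probe sets. The groups ordered by mean were 0.0485, 0.485, 485 mg/kg, vehicle, 4.85 and 48.5 mg/kg, and no neighbouring pair in this order passed.

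Cyp2c22 and Cyp2c23 were not called at any dose against vehicle. Cyp2c22, the retinoic acid hydroxylase, ran from 12.91 to 13.26 in vehicle (median 13.18) and from 13.03 to 13.70 at 485 mg/kg (median 13.31), where 4 of 6 arrays lay above the vehicle range. Its change there was 0.21, with a 95% interval from -0.01 to 0.43 (adjusted p = 0.211), and 0.14 without 485 mg/kg replicate 6. Cyp2c23, the arachidonic acid epoxygenase, ran from 12.83 to 13.25 in vehicle (median 13.07) and from 12.42 to 13.11 at 485 mg/kg (median 12.92), where 2 of 6 arrays lay below the vehicle range. The change was -0.21, with a 95% interval from -0.41 to -0.01 (adjusted p = 0.18), and -0.12 without 485 mg/kg replicate 3. Both genes had their widest spread at 485 mg/kg, with SDs of 0.27 and 0.27, against 0.17 and 0.15 in vehicle. Each passed in 1 of 15 pairs of groups: Cyp2c22 was higher at 485 than at 0.485 mg/kg by 0.37 ± 0.11 (adjusted p = 0.0173), and Cyp2c23 at 485 mg/kg differed from 4.85 mg/kg by -0.30 ± 0.10 (adjusted p = 0.0408). Of all probe sets, 13.7% and 12.8% were called in these comparisons.

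**Figure D2:**
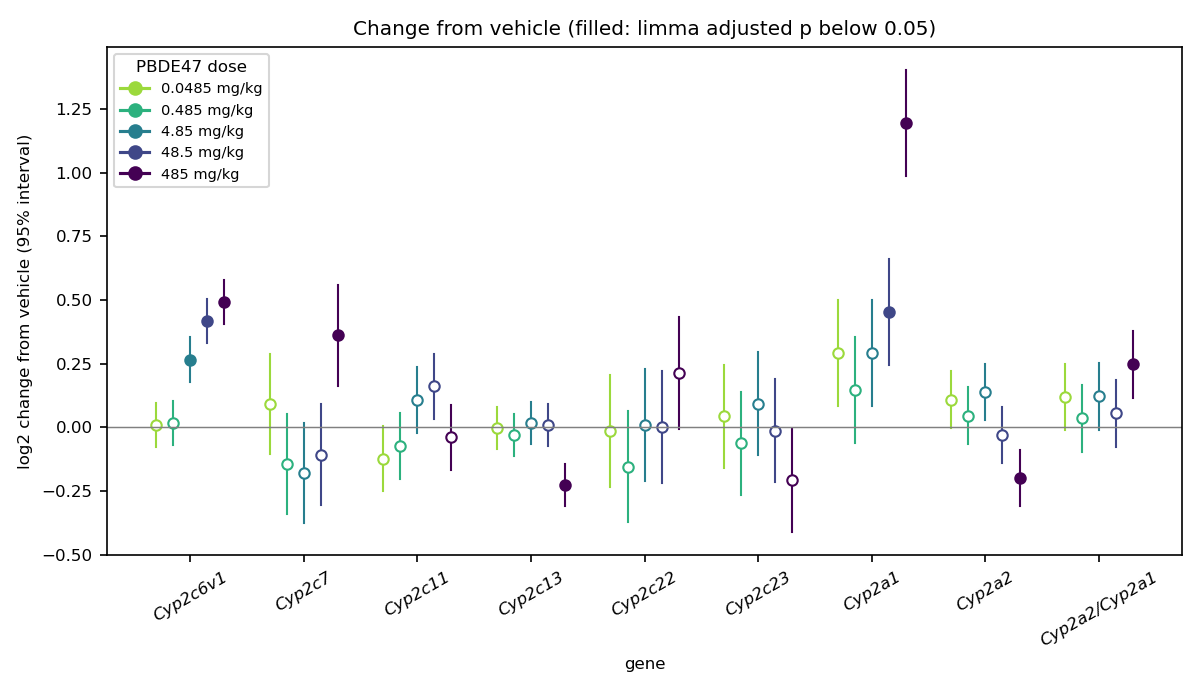
Log2 change from vehicle (y axis) of each member's probe set and of the shared probe set (x axis) at the 5 doses, coloured by dose. Points are limma estimates with 95% intervals and filled points passed at an adjusted p below 0.05; Cyp2a1 at 485 mg/kg stands highest at 1.19, and Cyp2c13 and Cyp2a2 at 485 mg/kg are the filled points below 0.

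Whether related members changed by different amounts was tested on the difference of their log2 values within each array. A two-sided exact permutation test was run for 3 pairs of genes at 5 doses and adjusted over the 15 tests. The 3 pairs were chosen with earlier results of these data known, and the p-values do not account for that choice. For Cyp2a1 minus Cyp2a2, adjacent genes of opposite sex preference, the vehicle arrays ran from -1.98 to -1.31 and the 485 mg/kg arrays from -0.56 to 0.16, without overlap. The difference moved by 1.39 at 485 mg/kg (exact permutation adjusted p = 0.00812) and by 0.48 at 48.5 mg/kg (exact permutation adjusted p = 0.0195), and at the 3 lower doses by 0.10 to 0.18 without passing. The levels of different probe sets are not comparable, so only these movements are read. Without vehicle replicate 3 the movement at 0.0485 mg/kg was 0.26 and passed (exact permutation adjusted p = 0.0162).

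Cyp2c6v1 minus Cyp2c11, the inducible against the male-specific CYP2C, ran from 0.11 to 0.30 in vehicle. It ran from 0.32 to 0.49 at 4.85 mg/kg, from 0.42 to 0.61 at 48.5 mg/kg and from 0.66 to 0.90 at 485 mg/kg, each wholly above vehicle. The movements were 0.16, 0.26 and 0.53, each with an exact permutation adjusted p of 0.00812, which comes from the smallest p that 6 against 6 arrays allow (0.00216). The call at 4.85 mg/kg was lost under quantile normalization of the deposited values (exact permutation adjusted p = 0.0649). At 0.0485 mg/kg the movement was 0.13 (exact permutation adjusted p = 0.0541), and it passed without 0.0485 mg/kg replicate 3 (exact permutation adjusted p = 0.013).

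Cyp2c7 minus Cyp2c11, the female-typical against the male-specific CYP2C, moved in both directions. Vehicle arrays ran from -0.51 to 0.03, 4.85 mg/kg arrays from -0.79 to -0.51, and 485 mg/kg arrays from -0.17 to 0.32. All 4.85 mg/kg arrays lay below the vehicle mean of -0.34 and just reached the lowest vehicle array, while the 485 mg/kg group overlapped the upper part of the vehicle range. The movement was -0.29 at 4.85 mg/kg (exact permutation adjusted p = 0.0216), -0.27 at 48.5 mg/kg (exact permutation adjusted p = 0.0528) and 0.40 at 485 mg/kg (exact permutation adjusted p = 0.0232). The call at 4.85 mg/kg was lost without 4.85 mg/kg replicate 2, 3, 4 or 5, with movements from -0.30 to -0.25, and the call at 485 mg/kg without vehicle replicate 1, 4, 5 or 6, with movements from 0.37 to 0.38. Quantile normalization also ended both calls (exact permutation adjusted p = 0.0696 and 0.0584). The 48.5 mg/kg movement passed without 48.5 mg/kg replicate 1, at -0.30 (exact permutation adjusted p = 0.0487). It passed there too without 0.0485 mg/kg replicate 3 (exact permutation adjusted p = 0.0469), an array outside that comparison that acts through the adjustment alone.

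**Figure D3:**
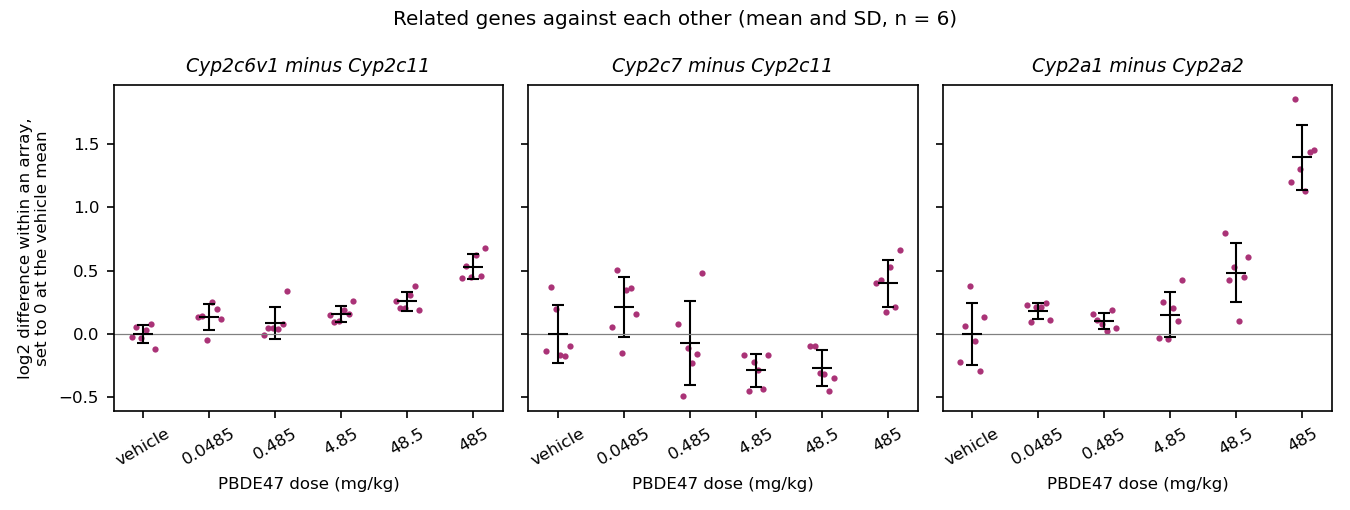
Difference of 2 members' log2 values within an array (y axis, set to 0 at the vehicle mean) by dose group (x axis, mg/kg) for 3 pairs of related genes. Points are arrays, bars are mean and SD (n = 6); Cyp2a1 minus Cyp2a2 moves by 1.39 at 485 mg/kg, and Cyp2c7 minus Cyp2c11 lies below 0 at 4.85 and 48.5 mg/kg and above it at 485 mg/kg.

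Within dose groups the members varied largely apart from one another. Over the 28 pairs of members, the correlation of deviations from the group means on the 36 arrays ran from -0.27 to 0.54 with a median of 0.07. It was below 0 for 8 pairs and above 0.5 for 1, Cyp2c23 with Cyp2a2. Residual SDs after fitting the groups were smallest for Cyp2c13, at 0.05, and Cyp2c6v1, at 0.06, both below the 1st percentile of all probe sets. They were 0.09 for Cyp2a2 and 0.10 for Cyp2c11, and between 0.17 and 0.20 for Cyp2c7, Cyp2c23, Cyp2a1 and Cyp2c22. These 4 lay between the 75.5 and the 84.3 percentile of all probe sets. These values share arrays and normalization and are given as a description.

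The genes whose pattern over all 36 arrays was most like each member were taken by Pearson correlation, which includes the differences between dose groups. Cyp2c6v1 was most like Cyp3a23-3a1 (r = 0.948), a steroid-hydroxylating P450, Ugt2b1 (r = 0.941), a glucuronosyltransferase, and Mmgt1 (r = 0.919). Cyp2a1 was most like Selenbp1 (r = 0.915), Ugt2a1 (r = 0.903) and Gsta3 (r = 0.902), a glutathione transferase. Ugt2a1 had a low vehicle mean of 5.55, near the array medians. Cyp2a2 was most like Aqp9 (r = 0.867), a glycerol channel, LOC102554026 (r = 0.838) and Fmo1 (r = 0.832), a flavin monooxygenase. Cyp2c13 was most like Glul (r = 0.803), the glutamine synthetase of pericentral hepatocytes, Ust5r (r = 0.802) and Hao2 (r = 0.801), a hydroxyacid oxidase. For these 4 members the changes of the likest genes at 485 mg/kg ran from -1.28 for Glul to 3.79 for Gsta3. A choice by correlation across the dose groups favours genes that change in the member's direction, so their signs are no separate result.

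The other members had weaker likeness. Cyp2c11 was most like Obp3 (r = 0.751), a male-typical lipocalin, Inmt (r = 0.700) and Slc1a2 (r = 0.697), a glutamate transporter of pericentral hepatocytes. Cyp2c23 was most like F9 (r = 0.755), coagulation factor IX, Cyp8b1 (r = 0.731), the sterol hydroxylase of cholic acid synthesis, and Pccb (r = 0.709). Cyp2c7 was most like Adh7 (r = 0.708), an alcohol dehydrogenase that can oxidize retinol, Bst2 (r = 0.694) and Acot7 (r = 0.693). Adh7 had a low vehicle mean of 5.81, near the array medians. Cyp2c22 was most like Ctbs (r = 0.666), Nckap1 (r = 0.638) and Atg4a (r = 0.633). All 24 correlations are the highest among many genes and carry no test.

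Of 23 listed genes of the remaining CYP2 family, without the members, 15 were measured by a probe set of their own. Cyp2b1 and Cyp2b2 are not among the 15, since they share 1 probe set. That probe set was called higher at 48.5 and 485 mg/kg, by 3.45 and 3.65. Among the 15, 2 rose at 485 mg/kg, Cyp2j4 (0.75 ± 0.09) and Cyp2j10 (0.29 ± 0.08), and 2 fell, Cyp2t1 (-0.78 ± 0.13) and Cyp2b3 (-0.37 ± 0.04). The median over the 15 was -0.01. Of the 15, limma called 0 at 48.5 mg/kg. There 4 had an unadjusted p below 0.05, 3 of them higher, beside 4826 of all probe sets in either direction. Of all probe sets, 7.81% were called higher and 7.22% lower at 485 mg/kg, and 2.57% and 0.821% at 48.5 mg/kg. The counts of this list and of the lists and markers below are read beside these shares. With 15 genes, and without Cyp2b1 and Cyp2b2, 2 in each direction is not read as a response of the family. Cyp2c12, the female-specific neighbour of Cyp2c13, had a vehicle mean of 11.41 and a change of 0.13 ± 0.32 at 485 mg/kg (limma adjusted p = 0.859). Cyp2a3, the third CYP2A of the cluster and known from the respiratory tract, had a vehicle mean of 3.58, below the lowest array median.

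P450 enzymes need electrons and heme, and 8 of 13 measured genes of redox partners and heme supply rose at 485 mg/kg, with 0 lower either after limma's adjustment or at an unadjusted p below 0.05, and a median change of 0.34. Alas1, the first enzyme of heme synthesis, changed by 2.01 ± 0.18 and Por, the P450 reductase, by 1.94 ± 0.24. Hmox1, which breaks heme down, changed by 0.67 ± 0.09 and Cyb5a, cytochrome b5, by 0.54 ± 0.04. The 48.5 mg/kg group had 3 of the 13 higher, Alas1 by 1.45, Por by 1.16 and Cyb5a by 0.34. At the 3 lower doses the medians ran from 0.02 to 0.09. These counts are read beside the 7.81% and 2.57% of all probe sets called higher at 485 and 48.5 mg/kg.

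Among 17 measured regulators of CYP2C and CYP2A genes, 4 fell at 485 mg/kg (median -0.07), and 0 rose by limma after adjustment or at an unadjusted p below 0.05. They were Onecut1 (-2.18 ± 0.64), a liver transcription factor, Foxa3 (-1.35 ± 0.22), a pioneer factor, Nr3c1 (-0.62 ± 0.10), the glucocorticoid receptor, and Cebpa (-0.46 ± 0.12). In the 48.5 mg/kg group Nr3c1 alone of the 17 was called, at -0.46 ± 0.10. The inducer-sensing receptors were not called at 485 mg/kg: Nr1i3 (CAR) was at -0.45 ± 0.17 (limma adjusted p = 0.0732) and Nr1i2 (PXR) by -0.02 ± 0.08 (limma adjusted p = 0.919).

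Of 25 measured genes of growth hormone signalling and sex-dependent expression, 3 rose and 6 fell at 485 mg/kg (median -0.0038). Socs2, a feedback inhibitor induced by growth hormone, changed by -2.11 ± 0.43, Ghr, its receptor, by -0.69 ± 0.07, and Hao2 by -1.19 ± 0.08. Cyp3a9, a P450 higher in females, changed by 1.24 ± 0.26, while the male-typical Cyp3a2 and Cyp3a18 rose by 0.27 and 0.29. Igf1, Igfals and Hsd11b1 were also lower. Fewer passed at 48.5 mg/kg: 2 rose, Cyp3a9 by 1.70 and Cyp3a2 by 0.20, and 2 fell, Socs2 (-1.71) and Hao2 (-0.26). The list holds genes of both sex preferences, so its count in 1 direction is not a direction of sex dependence.

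Around Cyp2c23, the list of arachidonic acid oxygenation and epoxide hydrolysis had 10 measured genes. At 485 mg/kg 3 rose and 1 fell (median -0.10): Ephx1, the microsomal epoxide hydrolase, changed by 1.09 ± 0.08, and Pla2g4a, a phospholipase that releases arachidonic acid, by -0.58 ± 0.14. The other 2 that rose, Cyp2j4 and Cyp2j10, also stand in the CYP2 list. Ephx1 alone of the 10 was called at 48.5 mg/kg, at 0.72 ± 0.08. Ephx2, the soluble hydrolase, was at -0.47 ± 0.64 at 485 mg/kg.

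**Figure D4:**
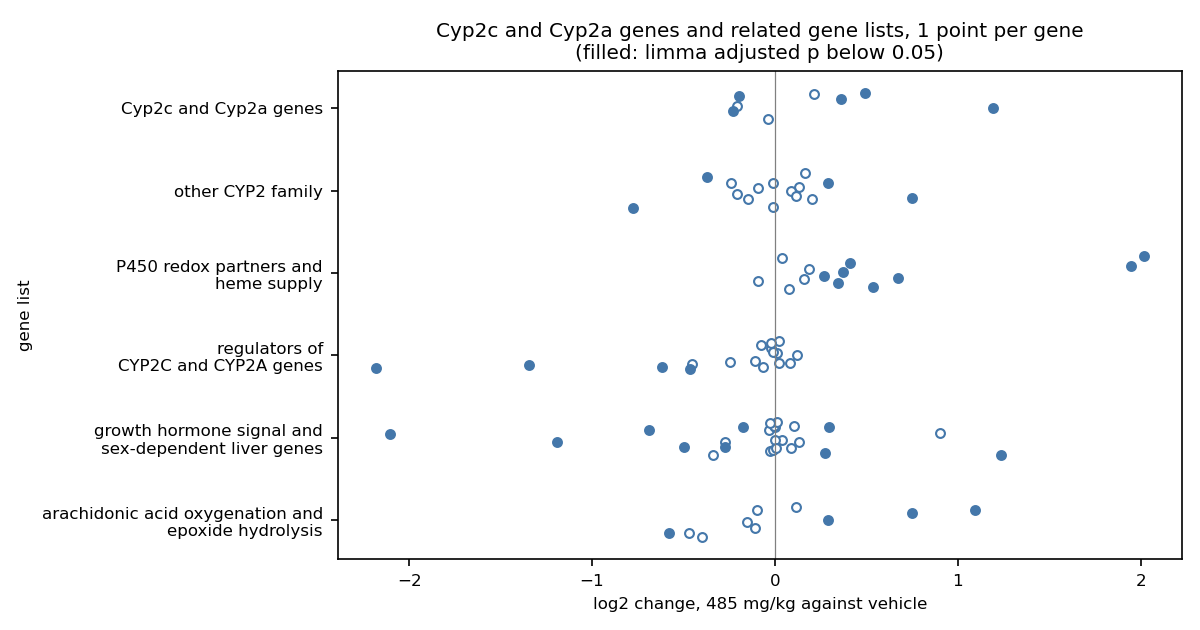
Log2 change at 485 mg/kg against vehicle (x axis) of the 8 members and of the genes of 5 related lists (y axis, 1 row a list). Points are genes and filled points passed at an adjusted p below 0.05; redox and heme genes that passed lie to the right of 0 and regulators that passed lie to the left, while the members lie on both sides.

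Hepatocyte markers moved with the 485 mg/kg group, in which 5 members were called. Of 8 measured hepatocyte markers 6 fell and 0 rose (median -0.27), and their mean level lay between 13.43 and 13.53 at 485 mg/kg against 13.61 to 13.85 in vehicle. Alb, the defining hepatocyte gene, stood at 15.06 in vehicle and 15.05 at 485 mg/kg, close to the highest values on the arrays (15.02 to 15.07), so this scale leaves no room to read a rise. The falls of Cyp2c13 and Cyp2a2, -0.23 and -0.20, lay near the hepatocyte list's median, and the part of the marker change in them was not tested. Of 6 pericentral markers, the zone in which many P450s are made, 2 fell, Glul (-1.28) and Oat (-1.80), with a list mean level of 8.10 to 8.34 against 8.74 to 9.16 in vehicle. Of 7 periportal markers 6 fell, with a list mean level of 9.82 to 10.35 against 10.60 to 10.98. In the 48.5 mg/kg group, where 2 members were called, 2 of 8 hepatocyte markers were lower (median -0.05), 2 of 6 pericentral and 3 of 7 periportal (median -0.42).

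Markers of other cell types were called lower or not called at 485 mg/kg, with 1 exception. For Kupffer cells and macrophages 3 of 6 were lower, for endothelium 2 of 5, for T and NK cells 3 of 7 and for erythroid cells 3 of 3. Of 7 stellate cell markers 0 passed in limma, with or without adjustment, where 8026 of all probe sets had an unadjusted p below 0.05. Of 4 cholangiocyte markers 1 was higher, Epcam. Among these types the 48.5 mg/kg group had Epcam higher and 1 T and NK cell marker and 1 erythroid marker lower. Their part in the members' values was not tested. The difference between 3' and 5' probe sets of Gapdh ran from -0.14 to 0.01 in vehicle and from -0.13 to -0.04 at 485 mg/kg, and that of Actb from 1.13 to 1.46 and from 1.06 to 1.33.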

How the data were processed

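Liver RNA with an RNA integrity number of at least 7.0 was amplified and biotin-labelled with a 3' IVT kit, per the labels' protocols. The deposited values are log2 values, which the authors computed by RMA in the R package affy, per the submitters' processing notes; versions and genome build are not given in the sources used here. Nothing was normalized again. The 57 control probe sets were left out, and the other 31042 all entered the tests, whatever their level: 20826 assigned to 1 gene, 436 to several and 9780 unnamed here. For a gene with several probe sets of its own, the brightest on average over the 36 arrays stands for it.

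A linear model with 1 coefficient per group was fitted by limma 3.58.1 under R 4.3.3, using lmFit and eBayes on all 36 arrays (30 residual and 5.26 prior degrees of freedom), giving pairwise contrasts and a moderated F test, two-sided, with Benjamini-Hochberg adjustment over 31042 probe sets per comparison. The study named R/maanova with a false discovery rate under 5%; the ordinary test of the same model stood in for it as an alternative. Other alternatives were a replicate block, quantile normalization, median centring, brighter probe sets, trend and robust eBayes, array weights, only the arrays compared, and each array left out. Promoters are RefSeq's (GRCr8). The fit was tested on simulated data in which some probe sets were changed by known amounts. The members, gene lists, pairs and tests were chosen with earlier results of these data known. Named genes are the 8 members, the 3 likest genes of each, and up to 4 called genes with the largest change per list at 48.5 and 485 mg/kg. Further called or uncalled genes of a list (Igf1, Igfals, Hsd11b1, Cyp3a18, Cyp2c12, Cyp2a3, Nr1i3, Nr1i2, Ephx2, Glul, Oat, Epcam, Alb) and the joint Cyp2b1 and Cyp2b2 probe set were named after their values were seen.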

Additional observations from a re-analysis of the deposited data

Results flagged for a closer look

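Of 54 sets of 6 arrays (8 member probe sets and the shared one in 6 groups), 4 held an array whose gap to the rest exceeded Dixon's critical share of the range at the 95% level, and chance gives about 1 in 20. Cyp2c11 at 0.485 mg/kg was 13.37 in replicate 6 against 13.70 to 13.87 in the others. Cyp2c13 at 0.485 mg/kg was 13.67 in replicate 3 against 13.76 to 13.82. Cyp2c22 at 0.0485 mg/kg was 13.35 in replicate 3 against 12.99 to 13.10. Cyp2a1 at 0.0485 mg/kg was 10.96 in replicate 6 against 11.11 to 11.18. No array was flagged for more than 1 gene.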

How the results depend on the processing

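The alternatives were run on each dose against vehicle, the steps 48.5 against 4.85 and 485 against 48.5 mg/kg, the F test and the pair differences. No called value reversed. Taking the mean of a gene's own probe sets changes nothing here, since each member has 1. The members called against vehicle stayed at 0, 0, 1, 2 and 5 when each array was left out, and those called by the F test at 6. Without each array in turn the count was 0 to 1 for 48.5 against 4.85 mg/kg and 3 to 4 for 485 against 48.5 mg/kg.

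With only the arrays compared, the count fell to 0 at 4.85 mg/kg and to 1 at 48.5 mg/kg, and it was 4 at 485 mg/kg. This setting takes the spread from the compared arrays alone. For 48.5 against 4.85 mg/kg the count was 1 under quantile normalization, brighter probe sets, the ordinary test, trend and robust settings and array weights. For 485 against 48.5 mg/kg it was 5 under the last 4 of these. The causes of these shifts in count were not tested.

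Same-numbered arrays deviated together with r from -0.17 to 0.23, above 0.1 for 8 of 30 pairs. Whether the numbers pair the samples was not tested. The replicate block changed no count of members. With the replicate block, the exact sign-flip permutation test of pair differences gave adjusted p of 0.0781 or 0.104 for the 7 called movements, at unchanged sizes. With 6 pairs this exact test cannot go below p = 0.0312, and 0.0781 is that p after adjustment. The movements at 0.0781 stood at this floor, so the value says nothing on their stability. Cyp2c7 against Cyp2c11 at 485 mg/kg, with the exact sign-flip adjusted p of 0.104, lay above the floor. The 7 called movements are 0.16, 0.26 and 0.53 for Cyp2c6v1 against Cyp2c11, -0.29 and 0.40 for Cyp2c7 against Cyp2c11, and 0.48 and 1.39 for Cyp2a1 against Cyp2a2. Quantile normalization left Cyp2c6v1 against Cyp2c11 at 4.85 mg/kg at 0.15 (exact permutation adjusted p = 0.0649). It left Cyp2c7 against Cyp2c11 at -0.28 at 4.85 mg/kg (exact permutation adjusted p = 0.0696) and at 0.42 at 485 mg/kg (exact permutation adjusted p = 0.0584).

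With each array left out, Cyp2c6v1 against Cyp2c11 ran from 0.11 to 0.17 at 0.0485 mg/kg. Cyp2c7 against Cyp2c11 ran from -0.18 to 0.014 at 0.485 mg/kg, from -0.32 to -0.21 at 4.85 mg/kg, from -0.30 to -0.19 at 48.5 mg/kg and from 0.35 to 0.47 at 485 mg/kg. Cyp2a1 against Cyp2a2 ran from 0.13 to 0.26 at 0.0485 mg/kg, from 0.04 to 0.18 at 0.485 mg/kg and from 0.09 to 0.23 at 4.85 mg/kg. In all, 50 values called in neither fit changed sign, the largest 0.051 in size.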
